A study of Homo sapiens with 2 samples.

Results

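The tubulin isotype genes described here are 10 members of the family that encodes the building blocks of microtubules: the alpha-tubulins TUBA1A, TUBA1C and TUBA4A, the beta-tubulins TUBB2A, TUBB2B, TUBB3, TUBB4B and TUBB6, the delta-tubulin TUBD1 and the gamma-tubulin TUBG1. They were taken by gene symbol, as every probe set whose platform annotation names a single gene and that gene is on the list, which gave 15 of 54675 probe sets and 10 of 19775 genes. The list was selected on earlier values of this same contrast, so the differences below are descriptions. Expression was measured on 1 Affymetrix array of HCT15 cells, an established human colorectal adenocarcinoma line, given Cas9 together with an ARID3B guide RNA and labelled as its knockout, and on 1 array of control HCT15 cells. Both cultures grew in RPMI with fetal bovine serum. The sources used here do not say what the control cells received, where the guide cuts, or whether the edited cells were a clone or a pool. Each group was 1 array, so the spread between replicates is unknown and no test was made.

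Microtubules are hollow polymers of alpha-tubulin and beta-tubulin dimers. Gamma-tubulin sits in a ring complex that starts their growth, and delta-tubulin is needed for the triplet microtubules of centrioles. The genes for one kind of tubulin encode very similar proteins, which differ most in their acidic C-terminal tails, where motors, binding proteins and modifying enzymes act. TUBB2B, TUBB3 and TUBA1A are best known from neurons, TUBB4B and TUBA1C are widely expressed in dividing cells, and TUBB3 is also studied in carcinomas because its level has been linked to the response to taxanes. Tubulin messenger RNAs are in addition degraded when free tubulin dimers are plentiful, a feedback in which the protein TTC5 recognises the nascent tubulin chain.

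Values are deposited RMA expression values in log2 units, so that a difference of 1 is 2-fold, and each difference is the knockout-labelled minus the control array. ARID3B itself stood at 6.09 (knockout-labelled) and 5.12 (control), a difference of 0.97 from 1 probe set (0.42 with 64 linear units added). The targeted transcript was thus not lower on the array labelled knockout. Whether the gene was edited or its protein lost cannot be read from these values. Every direction below rests on that label. Of 8 markers of colon epithelium, 7 were compared, 5 above 0 and 2 below, and none was past 2-fold. CDX2 read 6.91 (knockout-labelled) and 6.27 (control), KRT19 11.69 and 11.42, CDH1 10.66 and 11.11, and VIL1 5.45 and 5.66, while KRT20 was under the floor on both arrays (2.40 and 2.58). A gene was represented by its brightest probe set and compared when its higher value reached 4.59, the median of all probe sets that are not controls (the floor), which held for 12841 genes. On the knockout-labelled array 135 genes (1.05%) were higher by 2-fold or more and 487 (3.79%) were lower. The spike-in controls with a poly-A tail were lower on that array, with a mean difference of -1.19, and all directions are relative to the other genes.

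TUBB2B and TUBB2A form the pair on which the result turns. They are neighbouring genes on chromosome 6, and the arrays gave them different values, so the sequence around each start site is shown first. The windows run from 250 bases before to 50 bases after the annotated start, are read on the minus strand of GRCh38.p14, and come from RefSeq: chr6:3227604-3227903 for TUBB2B and chr6:3157495-3157794 for TUBB2A. Capitals mark matches on either strand to the CCAAT box with its core letters CCAAT, the TATA box written as TATAAA, the GC box written as GGGCGG, the cyclic AMP response half-site written as TGACG, and the AT-rich core ATTAA of the kind that ARID3 proteins bind.
TUBB2B: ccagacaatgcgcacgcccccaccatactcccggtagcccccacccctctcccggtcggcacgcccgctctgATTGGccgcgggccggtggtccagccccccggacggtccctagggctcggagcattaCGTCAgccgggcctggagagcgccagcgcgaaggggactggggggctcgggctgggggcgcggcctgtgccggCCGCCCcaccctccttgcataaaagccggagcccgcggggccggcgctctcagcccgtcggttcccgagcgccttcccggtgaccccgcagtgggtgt
TUBB2A: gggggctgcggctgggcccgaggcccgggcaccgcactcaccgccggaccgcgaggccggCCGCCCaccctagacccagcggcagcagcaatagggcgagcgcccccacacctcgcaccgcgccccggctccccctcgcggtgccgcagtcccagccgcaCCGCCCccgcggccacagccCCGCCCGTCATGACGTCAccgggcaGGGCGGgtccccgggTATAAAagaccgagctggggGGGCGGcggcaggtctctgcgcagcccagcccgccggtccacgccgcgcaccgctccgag
A global alignment had 346 columns, of which 254 held a base of both windows and the rest were gaps. Of the 254 aligned bases 168 were identical (66.1%), and no baseline from other promoter windows was computed. The GC content was 74.7% for TUBB2B and 79% for TUBB2A.

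The TUBB2B window held 1 CCAAT match, 1 GGGCGG match and 1 TGACG match. The TUBB2A window held 1 TATAAA match, 5 GGGCGG matches and 3 TGACG matches, some of which overlap, and no CCAAT match. Its run TGACGTCA was counted on each strand. Only exact letters were counted, so the near match cataaa in the TUBB2B window is not among the TATAAA matches. Neither window held ATTAA. Among all 35116 promoter windows of the same length, 34.6% held CCAAT, 11.5% TATAAA, 45.0% GGGCGG, 24.6% TGACG and 24.4% ATTAA. Over the 14 windows of the 10 tubulin genes, CCAAT was found in at least 1 window of 7 genes, GGGCGG in 7, TGACG in 3, ATTAA in 3 and TATAAA in 1. Some genes have several windows and so more chances of a match. The motifs were picked after the sequences were seen, and a match is a description of letters, not of binding.

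TUBB2B, a beta-tubulin of developing neurons, had the largest difference among the 10 genes. Its single probe set, 214023_x_at, read 3.70 (knockout-labelled) and 7.71 (control). The value of the knockout-labelled array lies under the floor, so the measured difference of -4.00 is not a measured fold. Set against the floor, TUBB2B was at least 8.68-fold lower. That bound depends on the floor, which is a median of probe sets and not a detection limit. With 64 linear units added, the TUBB2B difference was -1.82. It was the only one of the 10 genes with a value under the floor on either array. Genes of similar mean expression had differences with a spread of 0.34 (scaled median absolute deviation), which is the meaning of spread below.

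The suffix _x_at marks a probe set with probes that can match other transcripts, and those of 214023_x_at were not examined. A second probe set, 209372_x_at, is annotated to both TUBB2B and TUBB2A and so belongs to neither gene alone. It read 8.79 (knockout-labelled) and 8.82 (control), which differ by -0.03. The probe set annotated to TUBB2B alone was therefore lower on the knockout-labelled array, while the shared probe set was near equal. How much of the shared signal comes from either gene was not measured, so it is not a second reading of TUBB2B. Among all probe sets with this suffix and a value above the floor, 48 of 2803 (1.71%) were at least 2-fold lower, against 756 of 16984 (4.45%) of those with the plain suffix _at.

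TUBB2A, the close relative next to TUBB2B, was measured by a plain _at probe set. It read 10.36 (knockout-labelled) and 10.47 (control), and the difference of -0.11 lies inside the spread of 0.26. The values of the neighbouring pair thus differed by -4.00 and -0.11.

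TUBB6, a widely expressed and divergent beta-tubulin, read 10.55 (knockout-labelled) and 11.17 (control). This is a difference of -0.63, or 1.54-fold lower, in a probe set with the plain suffix, against a spread of 0.26.

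TUBB3, the beta-tubulin used as a marker of neurons, gave differences near 0. Its probe set 202154_x_at read 11.21 (knockout-labelled) and 11.06 (control), and 213476_x_at read 11.49 and 11.43. The differences were 0.14 and 0.06, both inside the spread of 0.26, and that of 213476_x_at was -0.03 when the arrays were scaled on ribosomal protein genes.

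TUBB4B, a widely expressed beta-tubulin, was measured by another pair of _x_at probe sets. The first, 208977_x_at, read 12.01 (knockout-labelled) and 11.89 (control) (0.12), and 213726_x_at read 12.02 and 11.79 (0.23). Both differences were positive and inside the spread of 0.26. Of the 5 beta-tubulins on the list, 3 lay below 0 and 2 above.

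**Figure D1:**
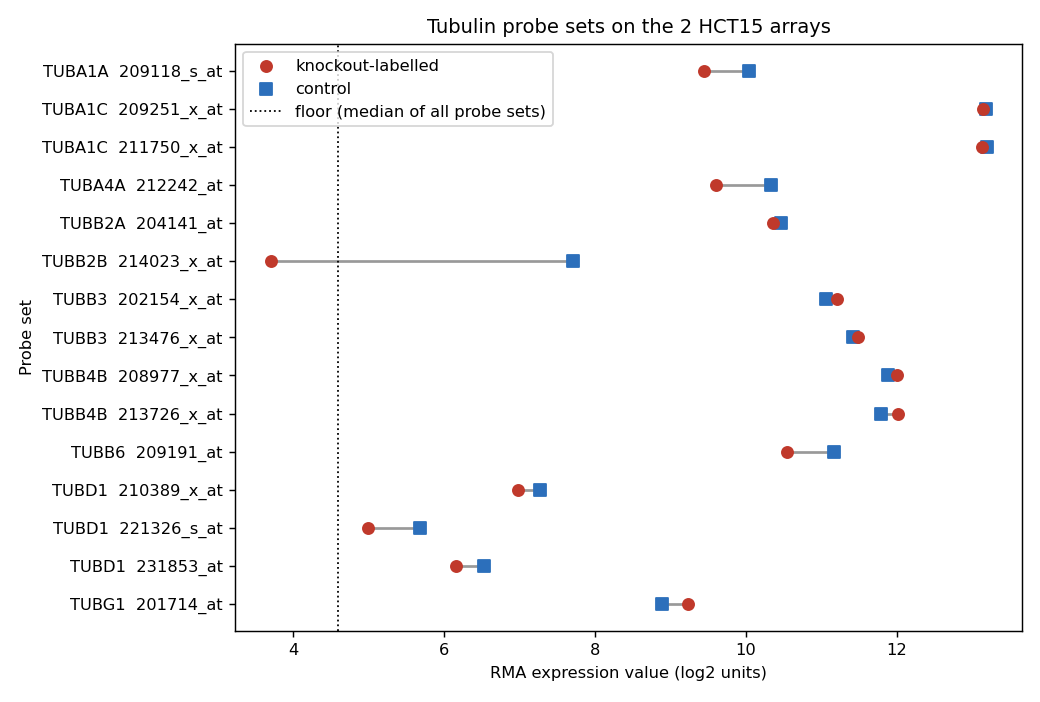
RMA expression values (log2 units, x axis) of the 15 probe sets of the 10 tubulin genes (y axis), with a red circle for the knockout-labelled array, a blue square for the control array and a dotted line at the floor of 4.59. The TUBB2B probe set spans 3.70 on the knockout-labelled array and 7.71 on the control array, while the symbols of TUBA1C lie on top of each other.

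The alpha-tubulins on the list split into 2 with lower values and 1 with near equal values. TUBA4A, an alpha-tubulin known from platelets, read 9.60 (knockout-labelled) and 10.34 (control). The difference of -0.74, or 1.67-fold lower, came from a probe set with the plain suffix and is 2.88 times the spread of 0.26 at its expression level. It placed TUBA4A 914th from the lowest among the 12841 genes.

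TUBA1A, the main alpha-tubulin of postmitotic neurons, read 9.44 (knockout-labelled) and 10.04 (control) in its _s_at probe set, a suffix for probes shared by several transcripts. The difference of -0.59, or 1.51-fold lower, exceeded the spread of 0.36.

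TUBA1C, an alpha-tubulin of dividing cells, was nearly the same on both arrays. Its probe set 209251_x_at read 13.15 (knockout-labelled) and 13.19 (control), and 211750_x_at read 13.14 and 13.19. The differences were -0.05 and -0.06. Both probe sets carry the suffix for cross-matching.

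TUBG1, the main gamma-tubulin of the ring complex, had the highest difference of the 10 genes. It read 9.24 (knockout-labelled) and 8.89 (control), a difference of 0.35 (1.27-fold higher), just under the spread of 0.36. TUBD1, the centriolar delta-tubulin, had 3 probe sets, all with the lower value on the knockout-labelled array. The brightest, 210389_x_at, read 6.98 (knockout-labelled) and 7.27 (control) (-0.29). The plain probe set 231853_at read 6.16 and 6.52 (-0.36). The dimmest, 221326_s_at, read 4.98 and 5.68 (-0.70). Their range of 0.41 was the widest among the genes with several probe sets, and the brightest and the plain one lay inside the spread of 0.44.

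Over the 10 genes, 7 lay below 0 and 3 above, with a median of -0.20, but 1 below and 9 above when the arrays were scaled on the poly-A spike-ins. Without TUBB2B the median of the other 9 was -0.11. Over all genes compared 45.1% lay below 0 and the median was 0.04. TUBB2B alone was at least 2-fold lower, where the background was 3.79% of genes, and none was 2-fold higher, where it was 1.05%. At 1.5-fold, TUBB2B, TUBA4A, TUBB6 and TUBA1A were lower, where the background was 10.5%. These 4 were also the members whose difference exceeded the spread at their own expression level. Nothing is read from these shares, because the genes were listed with their values known. The order from the lowest difference was TUBB2B, TUBA4A, TUBB6, TUBA1A, TUBD1, TUBB2A, TUBA1C, TUBB3, TUBB4B and TUBG1. Apart from TUBB2B and TUBA4A, neighbours in this order differed by less than the spread at their level.

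**Figure D2:**
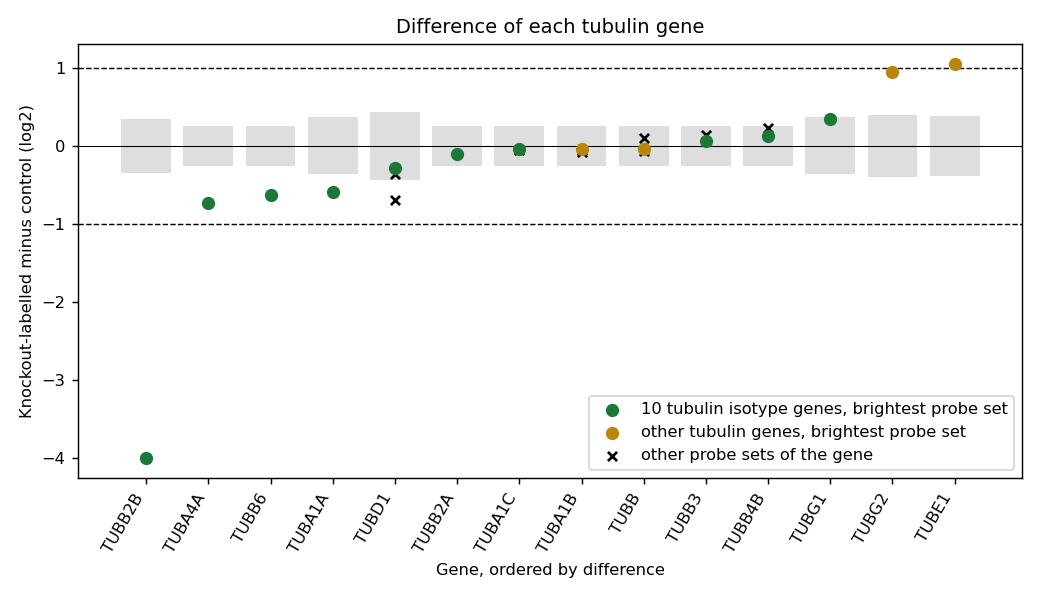
Difference of the knockout-labelled minus the control array (log2, y axis) for each compared tubulin gene (x axis), with circles for the brightest probe set, crosses for other probe sets, grey bands for the spread among genes of similar expression and dashed lines at 2-fold. TUBB2B lies at -4.00, TUBA4A, TUBB6 and TUBA1A lie between -0.74 and -0.59, and TUBE1 and TUBG2 are highest at 1.05 and 0.95.

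The probe sets of a gene agreed in sign for all 4 members that had several, while the other 6 had 1 probe set and no such check. For TUBA1C, TUBB3 and TUBB4B the check is weak. All their probe sets carry the suffix _x_at, may match the same transcripts and had differences inside the spread. Of the 15 probe sets, 8 carried the suffix _x_at. Apart from that of TUBB2B, the other 7 of these ranged from -0.29 to 0.23. TUBA4A, TUBB6, TUBB2A, TUBG1 and TUBD1 had a probe set with the plain suffix, which gave -0.74, -0.63, -0.11, 0.35 and -0.36. The lower values of TUBA4A and TUBB6 therefore stand in probe sets without a cross-matching suffix, and that of TUBB2B does not.

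**Figure D3:**
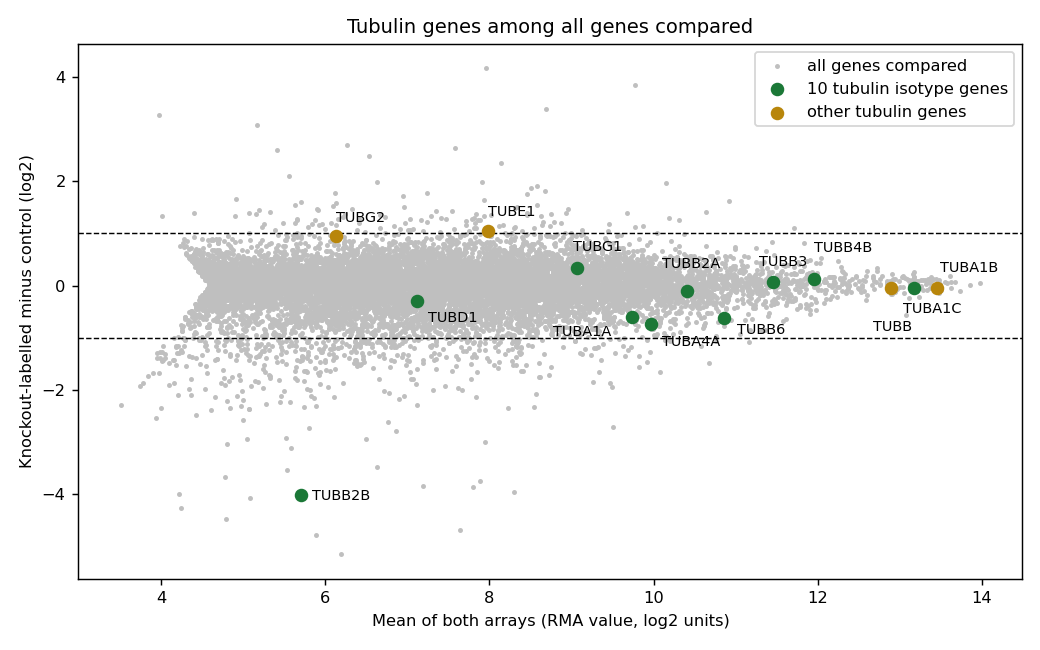
Difference of the knockout-labelled minus the control array (log2, y axis) against the mean of both arrays (log2 units, x axis) for 12841 genes (grey), the 10 tubulin isotype genes (green) and other tubulin genes (ochre), with dashed lines at 2-fold. TUBB2B lies at -4.00 at a mean of 5.71, and the tubulins with means above 11 lie between -0.05 and 0.12.

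The remaining tubulin genes were read from a list of 12, of which 8 had a probe set of their own symbol and 4 were compared. TUBE1, the epsilon-tubulin of centrioles, read 8.51 (knockout-labelled) and 7.46 (control), a difference of 1.05 (2.07-fold higher), and its other probe set was under the floor on both arrays at 2.11 and 2.18. The difference was under 2-fold as the mean of both probe sets (0.49), with 64 linear units added (0.84) and with scaling on ribosomal protein genes (0.96). TUBG2, the second gamma-tubulin gene, read 6.60 and 5.66, a difference of 0.95 (1.93-fold higher), or 0.49 with 64 linear units added. TUBE1 and TUBG2 each exceeded the spread of 0.39 at their level. TUBA1B, the abundant alpha-tubulin of dividing cells, read 13.42 and 13.47 (-0.05), and TUBB, the abundant beta-tubulin of the same cells, read 12.87 and 12.91 (-0.04). The abundant isotypes TUBA1B, TUBA1C and TUBB were thus near equal on both arrays in their _x_at probe sets. A plain probe set of TUBB read 11.55 (knockout-labelled) and 11.45 (control), and that of TUBA1B was under the floor on both arrays. TUBA8, TUBAL3, TUBB1 and TUBB4A were under the floor on both arrays and were not compared.

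The genes around the tubulins were described as the 5 compared genes on each side in RefSeq order, a choice made after their values were seen. Around TUBB2B, the 9 neighbours that are not tubulins differed by -0.68 (PSMG4, a proteasome assembly factor) to 0.23 (NQO2, a quinone reductase), with 6 below 0 and 3 above. None was as low as TUBB2B. Around TUBA1A, which lies between TUBA1B and TUBA1C on chromosome 12, the other 8 neighbours differed by -0.55 to 0.83, and TUBA1A at -0.59 was lower than all of them.

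TUBG1 and TUBG2 are neighbours on chromosome 17. The other 9 genes around them differed by 0.01 to 0.49, all above 0. The TUBG1 difference of 0.35 lay inside that range and the TUBG2 difference of 0.95 above it. Around TUBA4A on chromosome 2, the 9 neighbours that are not tubulin genes or pseudogenes differed by -0.07 to 0.78, against -0.74 for TUBA4A. Around TUBB6 on chromosome 18, the 10 neighbours differed by -0.71 to 0.45, a range that holds the TUBB6 value of -0.63.

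**Figure D4:**
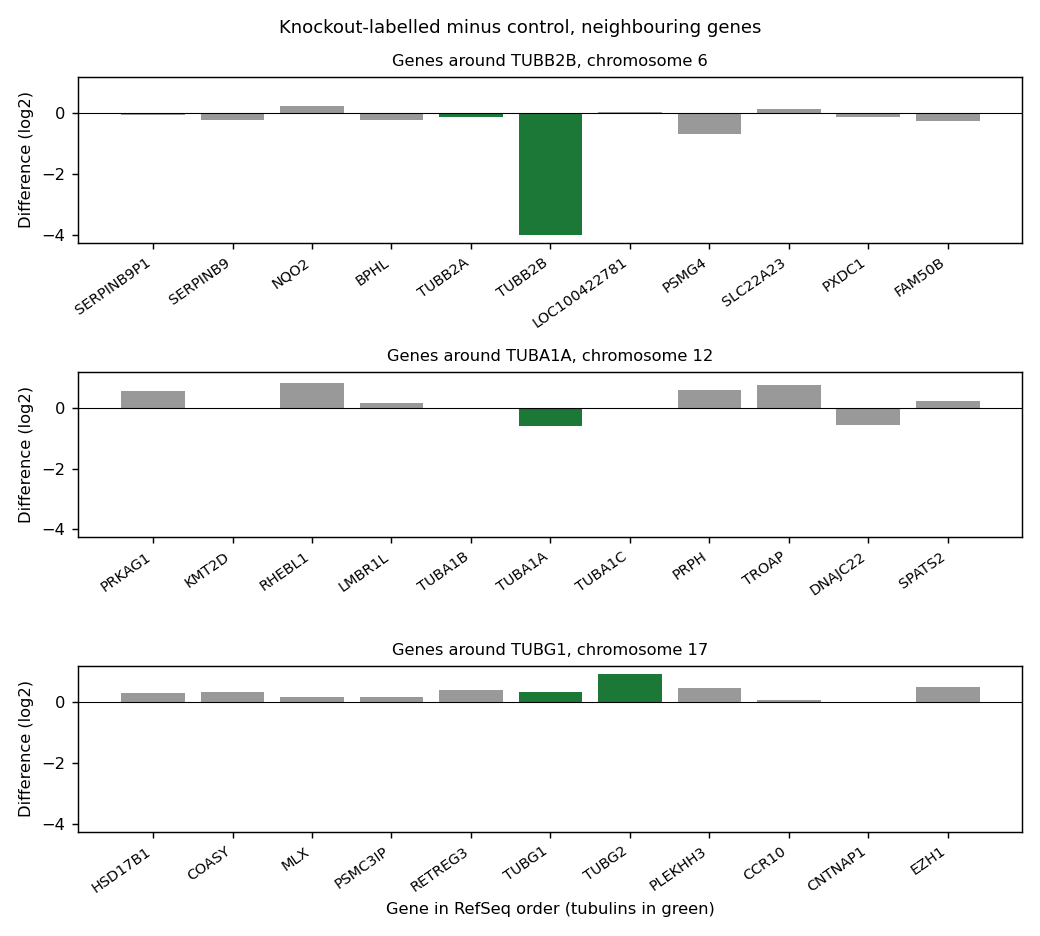
Difference of the knockout-labelled minus the control array (log2, y axis) for the compared genes on each side of TUBB2B, TUBA1A and TUBG1 in RefSeq order (x axis), with tubulins in green. The TUBB2B bar reaches -4.00 between neighbours of -0.11 (TUBB2A) and 0.06 (LOC100422781), and all bars around TUBG1 are above 0.

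The gamma-tubulin complex list covers the ring complex proteins and their centrosomal anchors. Of 13 genes, 11 were compared, with 9 above 0, 2 below and a median of 0.16, and none was past 2-fold. Over all genes compared, 1.05% were at least 2-fold higher, 3.79% at least 2-fold lower, and 45.1% lay below 0. These shares are also the background for the lists below. TUBGCP4, a ring subunit, read 8.77 (knockout-labelled) and 8.17 (control) (0.59), but its other probe set differed by 0.06. MZT1, a small adaptor of the complex, differed by 0.56 with 10.74 and 10.18, and 0.26 in its other probe set. TUBGCP2 (0.39) and TUBGCP6 (0.33), both ring subunits, followed, inside the spreads of 0.41 and 0.39 at their levels. The probe sets of TUBGCP2 ran from 0.21 to 0.67, and the other probe set of TUBGCP6 differed by 0.48. Some other genes of the list had probe sets of opposite sign, and the counts above use the brightest.

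The tubulin folding list holds the prefoldin and CCT chaperones and the tubulin cofactors, which assemble the dimer. All 21 genes with a probe set were compared, 14 above 0 and 7 below, with a median of 0.04. None was 2-fold higher (1.05% of all genes) or 2-fold lower (3.79% of all genes). The largest differences were those of the prefoldin subunits PFDN2 (0.45) and PFDN5 (0.38), of ARL2 (0.29), a small GTPase that works with the cofactors, and of TTC5 (0.29), the recognition factor of tubulin autoregulation. TTC5 read 7.07 (knockout-labelled) and 6.79 (control), inside the spread of 0.44.

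Tubulin-modifying enzymes add or remove acetyl, tyrosine, glutamate or glycine groups. Of 22 genes, 16 were compared, 10 above 0 and 6 below, with a median of 0.06, none 2-fold higher (1.05% of all genes) and 1 past 2-fold lower (3.79% of all genes). That gene was VASH2, a carboxypeptidase that removes the C-terminal tyrosine of alpha-tubulin, at 4.36 (knockout-labelled) and 5.60 (control). Set against the floor it was at least 2.01-fold lower, and its other probe set differed by -0.95. TTLL1 (0.62), a subunit of a polyglutamylase, ATAT1 (0.54), the tubulin acetyltransferase, and HDAC6 (0.48), the tubulin deacetylase, were next, with 0.12 in the other probe set of HDAC6.

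The list of microtubule-binding proteins had 29 of 34 genes compared, 18 above 0 and 11 below, with a median of 0.20. The differences of 1 gene were past 2-fold upward (1.05% of all genes) and of 1 downward (3.79% of all genes), and each was under the floor on 1 array. SLAIN1, which promotes growth at plus ends, read 6.71 (knockout-labelled) and 4.11 (control), at least 4.35-fold higher against the floor. MAP2, a dendritic microtubule protein, read 2.37 and 4.66, which is only at least 1.05-fold lower against the floor. EML1 stood at 4.39 and 5.21, again with the knockout-labelled array under the floor, and is at least 1.54-fold lower. MAPRE1, the plus-end protein EB1, read 9.62 and 10.37 (-0.75), with -0.66 in its other probe set.

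Severing and destabilising proteins take microtubules apart. Of 17 genes, 12 were compared, 6 above and 6 below 0, with a median of 0.01, 1 at least 2-fold higher (1.05% of all genes) and 2 at least 2-fold lower (3.79% of all genes). FIGNL1, a relative of the severing enzyme fidgetin that also acts in DNA repair, read 6.88 (knockout-labelled) and 8.67 (control) (-1.80, and -1.47 in its other probe set). STMN3, a stathmin that binds tubulin dimers, read 5.81 and 7.09 (-1.28). KIF2C, a mitotic depolymerising kinesin, read 10.54 and 9.54 (1.01, and 0.98 in its other probe set). KATNAL2 read 4.07 (under the floor) and 4.67, and is at least 1.06-fold lower.

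**Figure D5:**
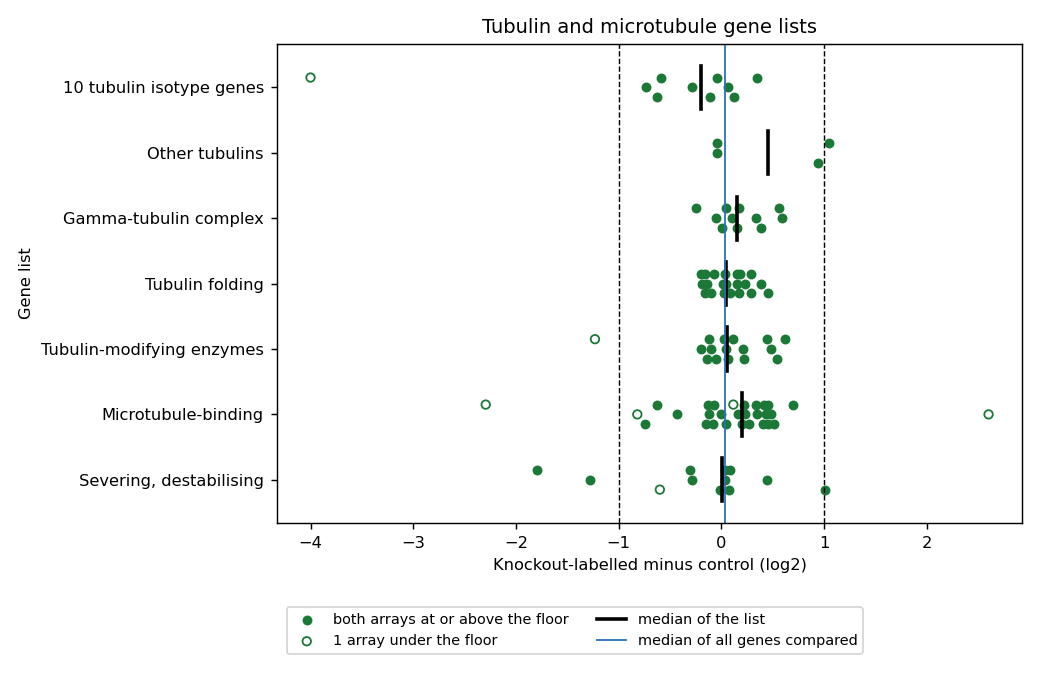
Difference of the knockout-labelled minus the control array (log2, x axis) of each compared gene by list (y axis), open circles marking genes under the floor on 1 array, black bars the list medians, the blue line the median of all genes (0.04) and dashed lines 2-fold. The list medians run from -0.20 for the 10 tubulin isotype genes to 0.45 for the other tubulins. The latter is the median of 4 genes, 2 above 0 and 2 below. It was 0.24 with the mean of probe sets and 0.95 without cross-matching suffixes, where 3 genes had a value.

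Because TUBB2B, TUBB3 and TUBA1A are known from neurons, 7 neuronal markers were read beside them. Of these, 2 were compared, RBFOX3 at 4.74 (knockout-labelled) and 4.65 (control) and INA at 5.17 on both. The values of all 7 ran from 2.79 (STMN2) to 5.17 (INA) on both arrays. The fibroblast, leukocyte and endothelial markers had 2, 2 and 1 compared genes. In the brightest probe set none was 2-fold higher (1.05% of all genes) or 2-fold lower (3.79% of all genes). A dimmer probe set of the fibroblast collagen COL1A1, 1556499_s_at, read 3.17 (knockout-labelled) and 5.64 (control), at least 2.07-fold lower against the floor, beside 7.12 and 6.87 in the brightest. Whether a change in the makeup of the cultures bears on the TUBB2B value was not tested, and in bulk RNA fewer cells of a type and less RNA per cell cannot be told apart.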

How the data were processed

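Total RNA of HCT15 cells was measured on 2 arrays, 1 of cells given Cas9 and an ARID3B guide RNA and 1 of control cells. The authors' deposited values are in log2 units and come from RMA (version not stated), per the submitters' processing notes. RMA corrects background, gives the arrays a common distribution and summarises each probe set, so that differences are relative to the other genes. The set of arrays that went through RMA jointly is not stated in those notes.

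Of 54613 probe sets that are not controls, 41091 carried 1 gene symbol and were used, while 1801 with several symbols and 11721 without any were not. Symbols were looked up by Entrez identifier in RefSeq (GRCh38.p14), where 41037 were found. The spread is the scaled median absolute deviation of differences in 10 bins of mean expression, 0.26 to 0.44. The genes and lists were chosen with earlier results of these data known. The genes named are the 10 tubulins, other tubulin genes with a probe set of their own symbol, ARID3B and up to 4 genes with the largest difference per list. Neighbouring genes, KRT20, STMN2 and the shared and pseudogene probe sets fall outside this rule and were named after their values were seen. With 2 arrays no gene was named for a pattern like that of a tubulin. Calculations used Python 3.11.15 and statsmodels 0.14.6. The calling code was run on simulated data, with changes larger than the threshold planted in bright genes and noise narrower than the spread here. That run checks the code only, not the calls on these arrays, and did not cover dim values such as those of TUBB2B. The alternatives were averaging the probe sets of a gene, no cross-matching suffixes, the floor left out, the floor raised to the 75th percentile (6.60), a loess trend removed (span 0.3), 3 other scalings, 64 linear units added, and thresholds of 1.5-fold and 3-fold. The number of arrays limits the precision.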

Additional observations from a re-analysis of the deposited data

How the results depend on the processing

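With 1 array per group no replicate could be left out, and no paired analysis was possible because each group holds 1 array. In the 8 alternatives other than poly-A scaling, 9 of the 10 tubulin genes kept their sign wherever they had a value, and TUBB3 ranged from -0.03 to 0.10. TUBB2B differed by -1.82 with 64 linear units added and by -4.10 with ribosomal protein scaling. With those units TUBG2 differed by 0.49 and ARID3B by 0.42, and TUBE1 was under 2-fold in 3 alternatives (0.49 to 0.96). Without probe sets of cross-matching suffix, 5 of the genes had a value and 0 were 2-fold lower, since TUBB2B has no other probe set. At 1.5-fold, 4 were lower. Scaling on the poly-A spike-ins raised every difference by 1.19. The median of the 10 genes was then 0.99, 5 were 2-fold higher, and TUBB2B (-2.82) was the 1 gene below 0. Over all genes, higher and lower counts were then 9137 and 44, against 135 and 487. They were 47 and 119 with 64 units added, 749 and 1349 at 1.5-fold, and 25 and 133 at 3-fold. The mean of probe sets gave 83 higher genes, and the higher floor 290 lower genes. Dim values limit TUBB2B, whose fold is only a bound that depends on the floor.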

Other observations

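Some tubulin probe sets lie outside the tubulin lists because they name several genes or a pseudogene. Those naming several genes were not compared, while a pseudogene was treated as any other gene, so that TUBA4B is among the genes compared. The probe sets annotated to both TUBA3D and TUBA3C, alpha-tubulins known from testis, read 6.56 (knockout-labelled) and 6.60 (control) in 1 case and 7.61 and 7.51 in the other. The probe set of the pseudogene TUBA4B, which lies next to TUBA4A, read 5.03 and 4.86, a difference of 0.17 beside -0.74 for TUBA4A. Those of TUBA3FP, TUBB7P and TUBBP5 were under the floor on both arrays. The largest difference among the shared and pseudogene probe sets was 0.45, for TUBA3FP.

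Exactly equal values on both arrays were found for 3678 of 54613 probe sets (6.73%) and for 253 of the 12841 genes compared (1.97%). None of the 33 probe sets of the named tubulin genes and ARID3B was among them.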
